A study of Mus musculus with 2 samples.

Results

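Cd3e, Cd3d, Cd3g, Mpzl2, Mpzl3 and Jaml are 6 neighbouring genes on mouse chromosome 9, 6 of the 21911 protein-coding genes of GENCODE mouse release 21. They were chosen by measured values: earlier results of the same peak lists had shown a long run of H3K27me3 peaks close to the Cd3 genes. The covered bases below are therefore a description of these genes, and no test was made on them.

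The mark was mapped by ChIP-seq (sequencing of DNA pulled down with an antibody to H3K27me3) in MEL cells, with 1 group of 2 biological replicates. MEL is an immortalized mouse erythroleukaemia line, labelled as leukaemia and as an analog of the human line K562, with no treatment named and with age and stage unknown. The labels give both libraries the same biosample, so the spread between them may be technical. Each of 4 peak lists on mm10 was used: the list of each replicate, a list called on both together (pooled), and the peaks of the pooled list that the authors kept as replicated.

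H3K27me3 is the trimethyl mark that Polycomb repressive complex 2 places on histone H3, and it often lies over silent developmental or lineage genes, where it can spread over long stretches. The CD3 epsilon, delta and gamma chains are the signalling part of the T-cell receptor complex and are made in T cells, not in the erythroid lineage. Mpzl2, Mpzl3 and Jaml encode membrane proteins with immunoglobulin domains: Mpzl2 mediates adhesion in epithelia and thymus, Mpzl3 is known from mice with a skin and hair defect, and Jaml is a leukocyte protein that binds the receptor Cxadr.

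Peak lists hold no expression, so the identity of the line could not be checked with them. The erythroid genes Gata1, Klf1, Epor, Tfrc, Nfe2 and Alas2 had 0 bp of peaks within 1 kb of their starts in the replicated list and in the list of either replicate, which does not show that they were expressed. The replicated list held 38298 peaks over 13.0 Mb, the pooled list 69721 over 19.1 Mb, replicate 1 had 70901 over 16.1 Mb, and replicate 2 had 106995 over 23.9 Mb. No read counts were given, so depth is unknown. Bases between peaks may still carry the mark below what the caller reported.

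Covered bases were dense from the end of Mpzl2 into Jaml and sparser over the Cd3 genes, among which Cd3g alone had replicated peaks. Sparser is meant relative to that dense part, not to the genome. In the replicated list the median share of the body covered was 0% over all genes. Cd3d and Cd3e had 0% too, and Cd3g had 6.78%. From the start of Mpzl2 to the end of Jaml, chr9:45039799-45108534, replicated peaks covered 28745 bp, or 41.8% of the stretch. The own lists covered 26282 bp in replicate 1 and 25176 bp in replicate 2 (SD 782 bp, n = 2). From the first to the last base of the Cd3 genes, chr9:44969572-45009627, replicated peaks covered 736 bp, or 1.84%, and the own lists covered 1123 bp and 1998 bp (SD 619 bp, n = 2). The map of peaks along the locus shows 2 dense runs to the right of Cd3e, 1 in the intergenic space before Mpzl2 and 1 from the end of Mpzl2 into Jaml.

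**Figure D1:**
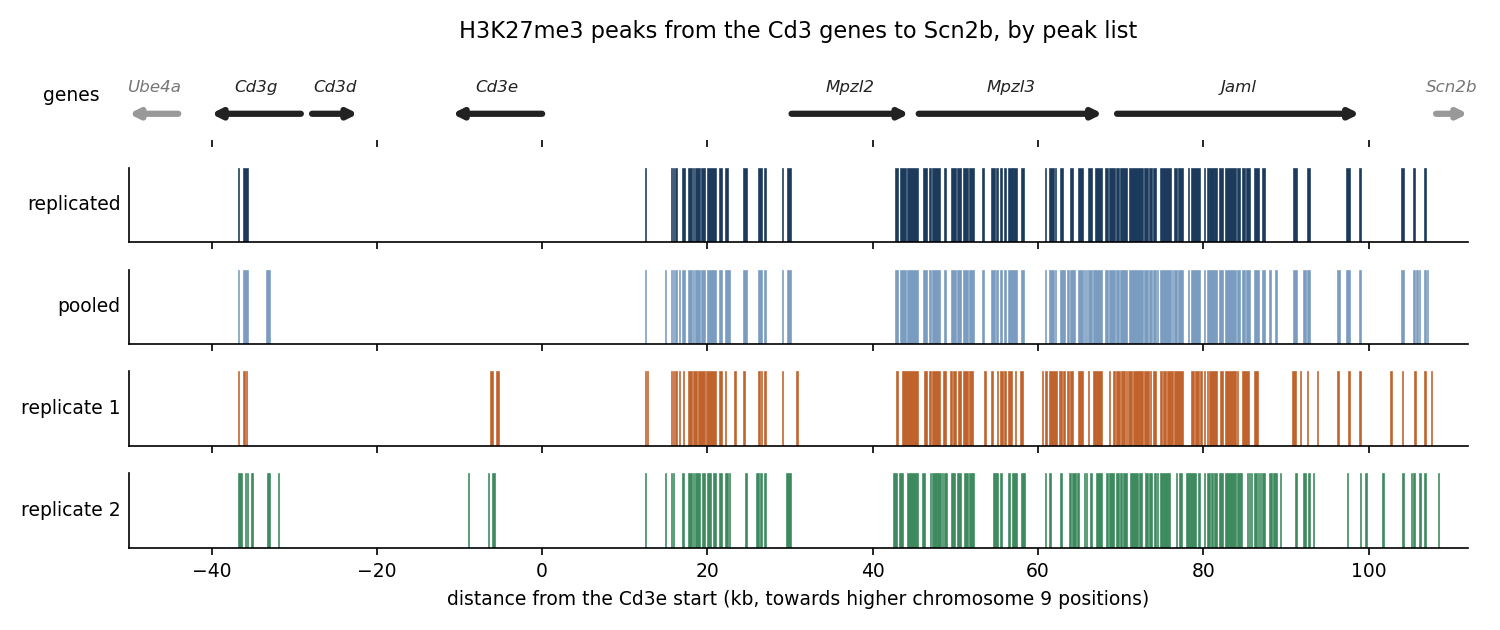
Peaks (vertical bars, drawn to scale) in the 4 lists against distance from the Cd3e start in kb; arrows are genes pointing in the direction of transcription, with the 6 genes described here in black and their neighbours in grey. Cd3d is empty in all 4 lists, Cd3e is empty in the replicated and pooled lists, and peaks are dense over Mpzl3 and the first part of Jaml.

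Sequence before the gene starts is shown for the members with an entry in the RefSeq promoter table on GRCm38.p6, which were Cd3d, Cd3e, Cd3g and Jaml (4 of 6), because it sets the only gene start inside a replicated peak beside the 3 Cd3 starts. Mpzl2 and Mpzl3 are named only. Each run gives the 250 bases before the RefSeq start, 5′ to 3′ on the strand of the gene, with capitals marking bases inside a replicated peak. In Jaml, 200 of the 250 bases are inside a peak, and in the Cd3 genes 0 are. The runs lie at chr9:45078933-45079182 (plus strand, Jaml), chr9:45009612-45009861 (minus strand, Cd3e), chr9:44981536-44981785 (plus strand, Cd3d) and chr9:44980432-44980681 (minus strand, Cd3g).
Jaml: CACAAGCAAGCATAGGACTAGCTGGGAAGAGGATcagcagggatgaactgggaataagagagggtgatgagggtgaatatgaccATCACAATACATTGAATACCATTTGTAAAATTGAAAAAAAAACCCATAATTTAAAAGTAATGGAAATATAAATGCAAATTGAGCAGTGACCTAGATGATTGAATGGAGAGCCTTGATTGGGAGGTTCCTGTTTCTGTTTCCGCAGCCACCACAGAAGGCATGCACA
Cd3e: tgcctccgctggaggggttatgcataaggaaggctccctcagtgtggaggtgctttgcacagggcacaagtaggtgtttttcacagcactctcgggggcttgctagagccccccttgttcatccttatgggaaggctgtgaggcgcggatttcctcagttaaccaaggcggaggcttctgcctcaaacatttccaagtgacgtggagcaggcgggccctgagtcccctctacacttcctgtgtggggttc
Cd3d: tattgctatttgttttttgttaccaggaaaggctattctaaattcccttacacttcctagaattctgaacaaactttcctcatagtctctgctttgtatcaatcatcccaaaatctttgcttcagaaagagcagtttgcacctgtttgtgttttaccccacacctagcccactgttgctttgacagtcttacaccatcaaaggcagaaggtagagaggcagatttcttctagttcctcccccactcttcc
Cd3g: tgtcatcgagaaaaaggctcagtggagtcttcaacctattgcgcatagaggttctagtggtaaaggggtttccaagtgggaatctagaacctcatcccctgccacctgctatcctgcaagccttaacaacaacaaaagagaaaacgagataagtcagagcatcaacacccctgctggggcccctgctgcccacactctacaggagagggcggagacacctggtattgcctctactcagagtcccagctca

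The letters CG occur 1 time in the Jaml run, 7 times in Cd3e, 0 times in Cd3d and 4 times in Cd3g. In the longer RefSeq promoter entries, which add 50 bases after the start, all 4 held CG, as did 94.6% of the 32851 RefSeq mouse promoters. The letters AGATAA, the core of sites bound by GATA factors, occur on either strand in the Cd3g entry, not in the other 3, and in 11.2% of all promoters. The letters TGTGGT, the core of sites bound by RUNX factors, occur on either strand in the Jaml entry, not in the other 3, and in 16.8% of all promoters. No entry held both motifs, so they did not overlap, and a match describes the letters of this window only.

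The strongest replicated peak of the locus is shown as the point with the highest values. It lay in an intron of Jaml at chr9:45092202-45093615, with a signal value of 7.25, a −log10 p of 12.49 and a −log10 q of 5.82 in the replicated list. The signal value is the authors' score for a peak, whose definition is not stated. The run below gives 100 bases on each side of the summit, chr9:45092474-45092674 on the plus strand of GRCm38, all in capitals because all 201 bases lie in the peak.
Jaml intron peak: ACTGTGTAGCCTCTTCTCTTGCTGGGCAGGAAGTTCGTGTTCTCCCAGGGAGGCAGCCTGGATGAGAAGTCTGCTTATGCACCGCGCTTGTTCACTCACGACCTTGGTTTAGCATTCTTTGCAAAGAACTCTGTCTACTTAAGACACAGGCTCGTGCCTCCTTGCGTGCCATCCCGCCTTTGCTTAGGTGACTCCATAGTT

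It holds CG 7 times and has a GC content of 52.2%.

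The 3 Cd3 genes, whose products form dimers around the receptor, had few or no covered bases. Cd3d (ENSMUSG00000032094.8, chr9:44981786-44987339, plus strand), which encodes the delta chain, had 0 peaks in each of the 4 lists. Cd3e (ENSMUSG00000032093.7, chr9:44998740-45009627, minus strand), which encodes the epsilon chain, had 0 bp in the replicated and pooled lists. Replicate 1 had 644 bp in 2 peaks of Cd3e, or 5.91% of its body, and replicate 2 had 603 bp in 3 peaks, or 5.54%. The amounts are close, but the peaks of the 2 replicates shared 30 bp, so both libraries had calls in the gene at mostly different positions. In replicate 1 the −log10 q of the peaks of Cd3e was 0.09 and 1.95, against a median of 1.45 over that list. In replicate 2 it was 1.35, 0.80 and 0.80, against a median of 0.80. No peak of Cd3e reached a −log10 q of 2 in either list.

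Cd3g (ENSMUSG00000002033.14, chr9:44969572-44980431, minus strand), which encodes the gamma chain, was the only Cd3 gene with replicated peaks. It had 2 of them, 1 within an exon at chr9:44972807-44972956 with a signal value of 3.81 and a −log10 q of 1.49, and 1 reaching from exon into intron at chr9:44973473-44974058 with a signal value of 3.53 and a −log10 q of 0.53. Together they covered 736 bp, or 6.78% of the body, and pooled peaks covered 1139 bp, or 10.5%. Replicate 1 had 479 bp in 3 peaks (4.41%) and replicate 2 had 1395 bp in 6 peaks (12.8%), so the own lists differed widely. Both replicated peaks overlapped a peak of each replicate, yet the replicates shared 213 bp of the 1661 bp that either covered, or 12.8%. The nearest replicated peak stood 6373 bp from the Cd3g start. In replicate 2 further peaks, at chr9:44976299-44976652 and chr9:44977698-44977837, lay nearer to it, the closest at 2594 bp, and in the pooled list the nearest stood 3774 bp away.

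No peak of any list lay within 1 kb of the start of Cd3e, Cd3d or Cd3g. The nearest replicated peak stood 12393 bp from the Cd3e start and 7728 bp from the Cd3d start. In the own lists the nearest peak to the Cd3e start was closer, at 5269 bp in replicate 1 and 5760 bp in replicate 2. The nearest to the Cd3d start was closer in replicate 2 only, at 3949 bp, and stood at 7848 bp in replicate 1. The gaps between the genes were empty as well: 1354 bp between the starts of Cd3g and Cd3d, which are transcribed away from each other, and 11400 bp between Cd3d and Cd3e held 0 peaks in each of the 4 lists.

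Mpzl2 (ENSMUSG00000032092.5, chr9:45039799-45054015, plus strand) had replicated peaks over its end and 1 weak replicated peak just before its start, with 0 between. Replicated peaks covered 1327 bp of it, or 9.33% of the body, all within the last 1640 bp, of which 80.9% was covered. The 12577 bp before that had 0 bp in the replicated list, with 288 bp in replicate 1 and 291 bp in replicate 2, of which 0 bp were shared. Body coverage was 9.15% in replicate 1 and 8.10% in replicate 2. By exon and intron, 19.0% of exon bases and 0% of intron bases were covered in the replicated list. The 3 replicated peaks in its last bases had −log10 q of 0.53, 1.49 and 3.80, and the strongest of them ran on across the gap to Mpzl3.

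The outermost start of Mpzl2 had 515 bp of replicated peaks within 1 kb, all before it, in 1 peak that ended 22 bp away. That peak, chr9:45039263-45039777, had the lowest values of the stretch it belongs to, a signal value of 2.14 and a −log10 q of 0.04, and it overlapped a peak of replicate 2 but none of replicate 1. Replicate 2 had 659 bp within 1 kb, in a peak that also ended before the start. Replicate 1 had 299 bp, of which 288 bp lay after the start, and its last peak before the start ended 989 bp away. The start of the transcript Mpzl2-201, which lies further inside the gene, had 0 bp within 1 kb in each of the 4 lists, and its nearest replicated peak stood 2648 bp away. Whether a peak lay within 1 kb of the start of Mpzl2 thus depended on which annotated start was used.

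Mpzl3 (ENSMUSG00000070305.10, chr9:45055186-45077436, plus strand) was covered along its length. Its 24 replicated peaks covered 10706 bp, or 48.1% of the body, against 47.3% in 30 peaks of replicate 1 and 39.7% in 27 peaks of replicate 2. Signal values of the replicated peaks ran from 2.61 to 5.70 with a median of 4.07, and −log10 q ran from 0.08 to 4.04 with a median of 1.49. Replicated peaks covered 48.8% of its exon bases and 47.8% of its intron bases, while in the own lists exons had less than introns, 41.1% and 50.2% in replicate 1 and 34.2% and 42.2% in replicate 2. Of the 24 peaks, 13 lay within introns, 6 within exons and 5 across a border. Around the Mpzl3 start 1371 bp were covered within 1 kb in the replicated list, with 1274 bp in replicate 1 and 1196 bp in replicate 2.

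Jaml (ENSMUSG00000048534.7, chr9:45079183-45108534, plus strand) was covered over its first part. Its 27 replicated peaks covered 14397 bp, or 49.0% of the body, with 44.1% in 34 peaks of replicate 1 and 44.8% in 44 peaks of replicate 2. Of its first 17899 bp, replicated peaks covered 73.0%, peaks of replicate 1 63.3% and peaks of replicate 2 61.9%. Of its last 11453 bp they covered 11.6%, 13.9% and 18.1%. Introns were covered over 51.9% of their bases and exons over 25.0%, and 21 of the 27 peaks lay within introns.

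The Jaml start was the only start of the 6 that lay inside a replicated peak, chr9:45079017-45079448, with a signal value of 5.19 and a −log10 q of 2.52, and it lay inside a peak in each replicate too. Within 1 kb, 1794 bp were covered in the replicated list, with 1207 bp in replicate 1 and 1431 bp in replicate 2. An internal start, that of Jaml-204, had 1311 bp within 1 kb, and the start of Jaml-207, past the dense part, had 389 bp.

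By the share of the body covered, Jaml and Mpzl3 were close, and the range of Mpzl3 over the replicates (39.7% to 47.3%) took in both values of Jaml. Mpzl2, Cd3g and Cd3e followed far below, with values in the replicates from 4.41% to 12.8% that overlapped between Cd3g and each of the other 2, and Cd3d was at 0 in both. Of 21911 genes, 15 had a larger share covered than Jaml in the replicated list, 17 than Mpzl3, 485 than Mpzl2 and 648 than Cd3g. Any covered base was found in the bodies of 4 of the 6 genes and of 11.5% of all genes, and at least 10% of the body in 2 of the 6 and in 2.03% of all genes. The genes were chosen on these values, so nothing is read from those shares.

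A start counted as marked if any base of a peak fell within 1 kb of it. Mpzl2, Mpzl3 and Jaml, 3 of the 6, were marked in the replicated list, where 3.0% of all genes were. The same 3 were marked in the pooled list (background 4.48%), in replicate 1 (4.46%) and in replicate 2 (6.28%). The Mpzl2 call was the one lost with replicated peaks of a −log10 q of at least 2 and with the stronger 50% of them by signal value, since it rests on the 1 weak peak before that start. Of the gaps, that between Mpzl2 and Mpzl3 was covered over 93.7% of its 1170 bp in the replicated list, with 90.3% in replicate 1 and 90.2% in replicate 2. The gap between Mpzl3 and Jaml, 1746 bp, was 69.8% covered, with 26.5% in replicate 1 and 56.8% in replicate 2. The gap from Jaml to Scn2b, 9247 bp, was 10.5% covered, with 10.9% and 17.1%.

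**Figure D2:**
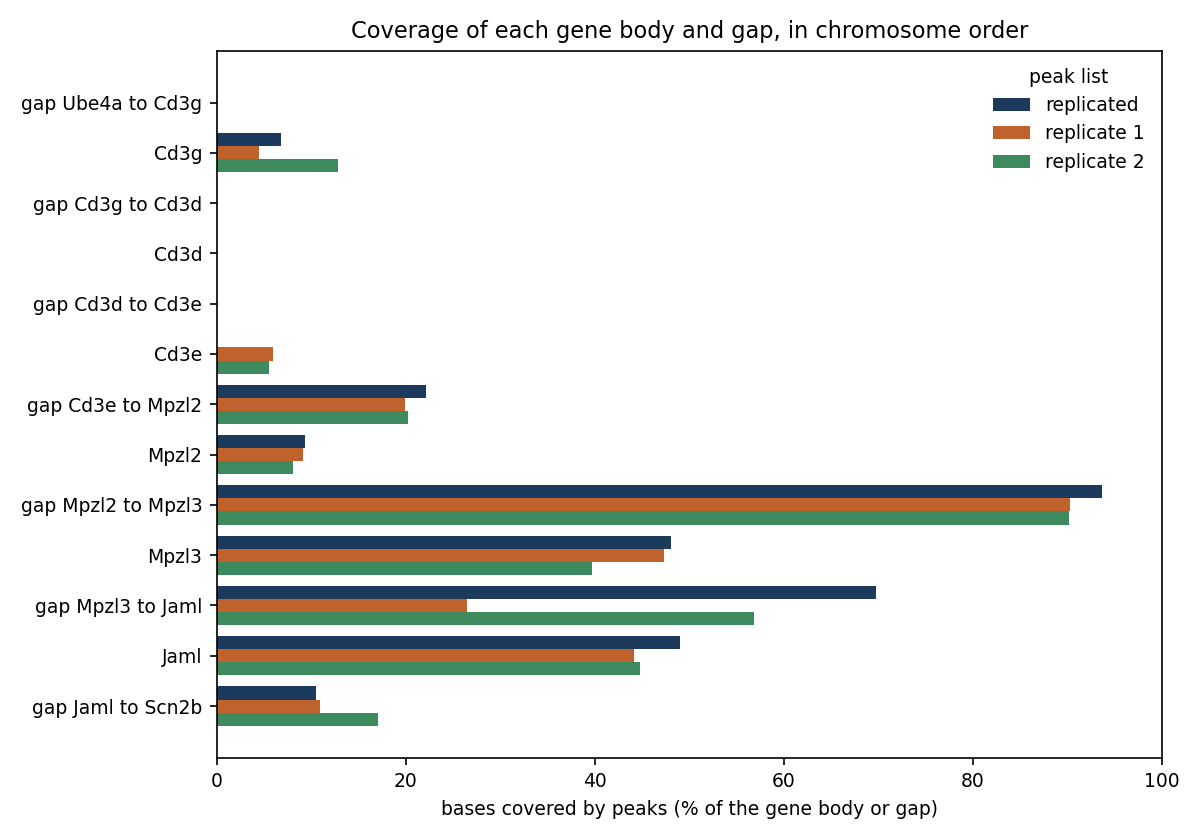
Share of each gene body and gap covered by peaks, in percent, in chromosome order from the top; bars are the replicated list and the own list of each replicate. The gap from Mpzl2 to Mpzl3 reaches 93.7%, Mpzl3 48.1% and Jaml 49.0% in the replicated list, and every unit from Ube4a to Cd3e stays at or under 12.8% in these lists.

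The borders were set by joining replicated peaks less than 3 kb apart. The domain over Mpzl3 then ran over chr9:45052376-45097081, 44706 bp with 52 peaks that covered 61.3% of it, and it ranked 9 by length of 14456 joined stretches in the genome. Its left border lay 1640 bp inside the end of Mpzl2 and 2810 bp before the Mpzl3 start, and 42748 bp separated it from the Cd3e start. Its right border lay 17899 bp into Jaml and 11453 bp before the end of that gene. In their own lists the domain ran over chr9:45052472-45096203 (43732 bp, rank 14 of 24279) in replicate 1 and over chr9:45052085-45103039 (50955 bp, rank 21 of 33561) in replicate 2, and in the pooled list it was 50172 bp long. The left borders thus lay within 387 bp of each other over these lists, and the right borders were farther apart, 6836 bp between the 2 replicates.

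The domain was not continuous. The longest gap between its peaks was 2522 bp, chr9:45067965-45070486 in Mpzl3, the next was 921 bp, and the median of the 51 gaps was 216 bp. Joining within 1 kb split it there into 15589 bp and 26595 bp in the replicated list, the longer of which ranked 2 of 21342. In the own lists the domain broke at more places. Its longest piece was then 17052 bp in replicate 1 (rank 8 of 37909) and 26704 bp in replicate 2 (rank 2 of 56369). Joining within 10 kb extended it past the end of Jaml, to 64181 bp in the replicated list (rank 76 of 8922) and 106276 bp in the pooled list (rank 67 of 11837). It was 111221 bp in replicate 1 (rank 60 of 13518) and 146952 bp in replicate 2 (rank 64 of 17201), where it reached into Tmprss4. The rank by length was thus lower than with the shorter joining distances. Cd3g and the stretch before Mpzl2 stayed separate from it in each of the 4 lists.

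Between the Cd3 genes and the domain, a second stretch ran over chr9:45022020-45039777. It was 17758 bp long, held 17 replicated peaks that covered 37.6% of it, and ranked 124 of 14456. It began 12392 bp from the Cd3e start and ended 21 bp before the outermost start of Mpzl2. Its first peak stood 2967 bp from the next, just under the joining distance. Joined within 1 kb, the stretch fell into pieces in the replicated list, the longest of 6920 bp (rank 178 of 21342). Joined within 10 kb, it kept its length and ranked 991 of 8922. In the own list of replicate 1, joined within 3 kb, it ended inside Mpzl2, at position 45040629. Its coverage was 33.8% in replicate 1 and 34.4% in replicate 2. From its end in the replicated list to the domain lay 12598 bp, chr9:45039778-45052375, with 0 replicated or pooled peaks, which held most of Mpzl2. On the other side, replicated peaks in Cd3g were followed by 47961 bp without one, up to this stretch. In the own lists the distance from Cd3g to the next peak was 29374 bp in replicate 1 and 22763 bp in replicate 2, because both had peaks in Cd3e.

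**Figure D3:**
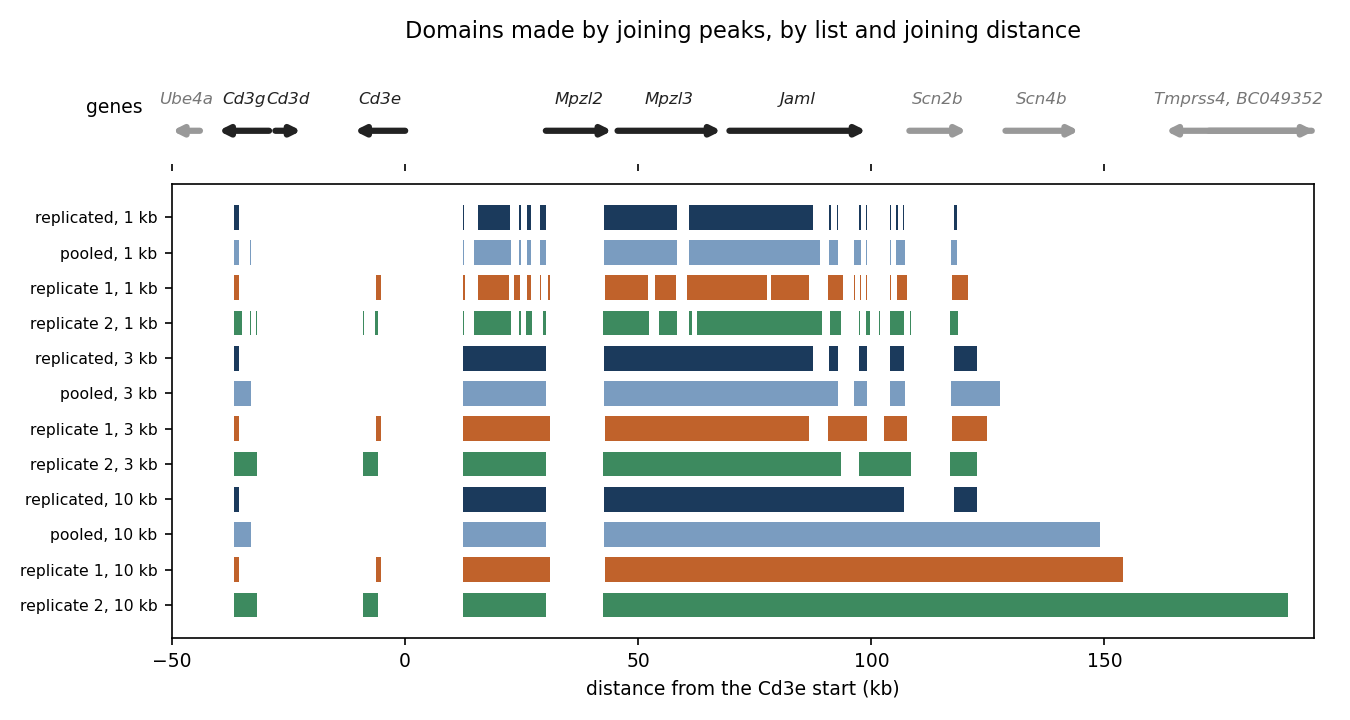
Stretches made by joining peaks less than 1, 3 or 10 kb apart in each list, against distance from the Cd3e start in kb; arrows are genes, and stretches that begin over 20 kb past Jaml are not drawn. The left border at the end of Mpzl2 stays in place over lists and joining distances, the right border moves, and the stretch before Mpzl2 stays separate from the domain.

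The peaks of the domain had higher values than the list as a whole, which is given as a description because the genes were chosen on peaks. Their signal values ran from 2.61 to 7.25 with a median of 4.16, against a median of 3.54 over all 38298 replicated peaks, 8 of which were above 7.25. Their −log10 q ran from 0.08 to 5.82 with a median of 1.49, against 0.83, and 16 peaks of the list were above 5.82. A −log10 q of at least 2 was reached by 20 of the 52 peaks (38.5%), against 10.9% of the list. In replicate 1 it was 35 of 62 peaks (56.5%) against 30.8%, and in replicate 2 it was 23 of 68 (33.8%) against 12% of its list. Their median width was 428 bp, against 278 bp for the list.

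In the replicated list, the stretch before Mpzl2 had lower values than the domain. Its signal values had a median of 3.74 and a maximum of 5.19, and 4 of its 17 peaks (23.5%) reached a −log10 q of 2, with summits from 18.60 to 21.62 kb from the Cd3e start. In replicate 1 the stretch and the domain did not differ this way: the median signal value was 4.49 in the stretch and 4.44 in the domain, the median −log10 q was 2.26 and 2.04, and a −log10 q of 2 was reached by 55.0% and 56.5% of the peaks. In replicate 2 the median signal value was 4.01 in the stretch and 4.14 in the domain, and 20.0% and 33.8% of the peaks reached a −log10 q of 2. The 2 replicated peaks of Cd3g had none, and in the own lists 1 of 3 peaks of Cd3g reached it in replicate 1 (2.04) and 0 of 6 in replicate 2.

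**Figure D4:**
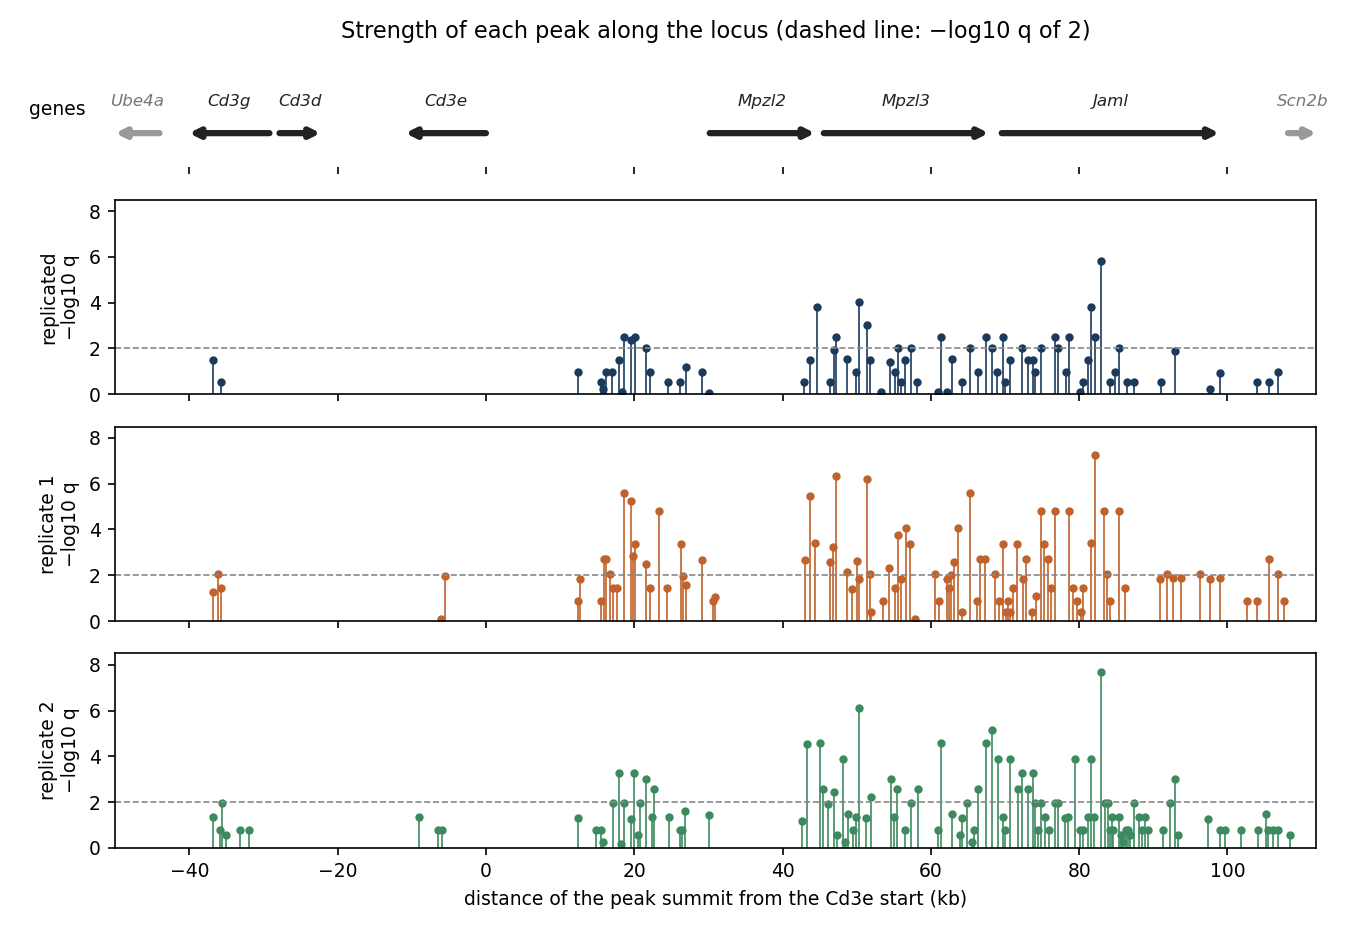
The authors' −log10 q of each peak at its summit against distance from the Cd3e start in kb, in the replicated list and in the own lists of the replicates; the dashed line is a −log10 q of 2. The highest values, 5.82 in the replicated list, with 7.25 in replicate 1 and 7.67 in replicate 2, lie in Jaml.

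The replicates overlapped over most peaks and fewer bases. Of the 52 replicated peaks of the domain, 45 overlapped a peak in both own lists, 3 in replicate 1 only, 3 in replicate 2 only and 1 in neither. The replicates shared 14647 bp of the 32568 bp that either covered (45.0%), which was 60.0% of the bases of replicate 1 and 64.2% of those of replicate 2. In the stretch before Mpzl2, 14 of 17 peaks overlapped both, and 46.9% of the covered bases were shared. The share was 12.8% in Cd3g and 2.47% in Cd3e.

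Base composition, which no choice of genes had used, differed little between the 2 sides. GC content was 44.5% in the domain and 44.9% from the first to the last base of the Cd3 genes. Repeats (soft-masked bases) made up 22.5% of the domain and 24.6% of the Cd3 stretch, against 32.0% of chromosome 9. Inside the domain they made up 20.0% of the bases in replicated peaks and 26.4% of those between them, and in the stretch before Mpzl2 18.8% and 36.7%. By gene body the 2 shares were 14.7% and 24.0% in Jaml, 24.4% and 25.1% in Mpzl3, and 31.1% and 29.9% in Mpzl2. The difference was thus not even over the genes. The part of repeats in the gaps between peaks was not tested.

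Of the 6 starts, 5 were poor in CpG. The ratio of observed to expected CpG within 500 bp of the start was 0.27 for Cd3e, 0.19 for Cd3d, 0.16 for Cd3g, 0.21 for Mpzl2 and 0.22 for Jaml, against a median of 0.55 over all genes. The Mpzl3 start had 0.62. The marked starts thus included the richest of the 6, Mpzl3, and those of Mpzl2 and Jaml, whose ratios lay within the range of the 3 Cd3 starts, none of which was marked.

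Outside these 6 genes, covered bases lay mostly on the Jaml side of the locus. In the stretch that reaches 300 kb beyond the first and the last of them there were 17 other protein-coding genes. Before Cd3g, Phldb1, Arcn1 (a coatomer subunit), Ift46 (intraflagellar transport), Tmem25, Ttc36, Kmt2a (a histone H3 lysine methyltransferase), Atp5l (an ATP synthase subunit) and Ube4a (a ubiquitin ligase) had 0 bp in the replicated list. Treh, which encodes the enzyme trehalase, had 10.5% of its body covered at the far end. The last replicated peak before Cd3g stood 291613 bp from the first one in it. In the own lists that distance was 247031 bp in replicate 1 and 28833 bp in replicate 2, in which 1 peak of 140 bp lay in Ube4a.

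After Jaml, Scn2b and Scn4b, which encode beta subunits of sodium channels with immunoglobulin domains, had 6.66% and 18.6% of their bodies covered. Tmprss4, a membrane serine protease, had 17.9%, BC049352, which overlaps it, had 8.37%, and the 2 share peaks. Il10ra, which encodes the alpha chain of the interleukin 10 receptor, had 32.0%, with 35.2% in replicate 1 and 23.5% in replicate 2. Tmprss13 had 0 bp, and Fxyd6 and Fxyd2, regulators of the sodium pump, had 2.21% and 4.98%. In the replicated list 2 of the 17 starts were marked, against 3.0% over all genes: that of Il10ra, with 1571 bp covered within 1 kb, and that of BC049352, with 157 bp. Both were marked in each replicate too. The Scn2b start was marked in the pooled list (64 bp) and in each replicate (140 bp in either), and the Treh start in replicate 2 alone (140 bp). Among non-coding genes of the locus, Gm48840, which overlaps the end of Mpzl2 on the minus strand, was 61.8% covered, and ChIP reads carry no strand that could assign the mark to either gene.

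**Figure D5:**
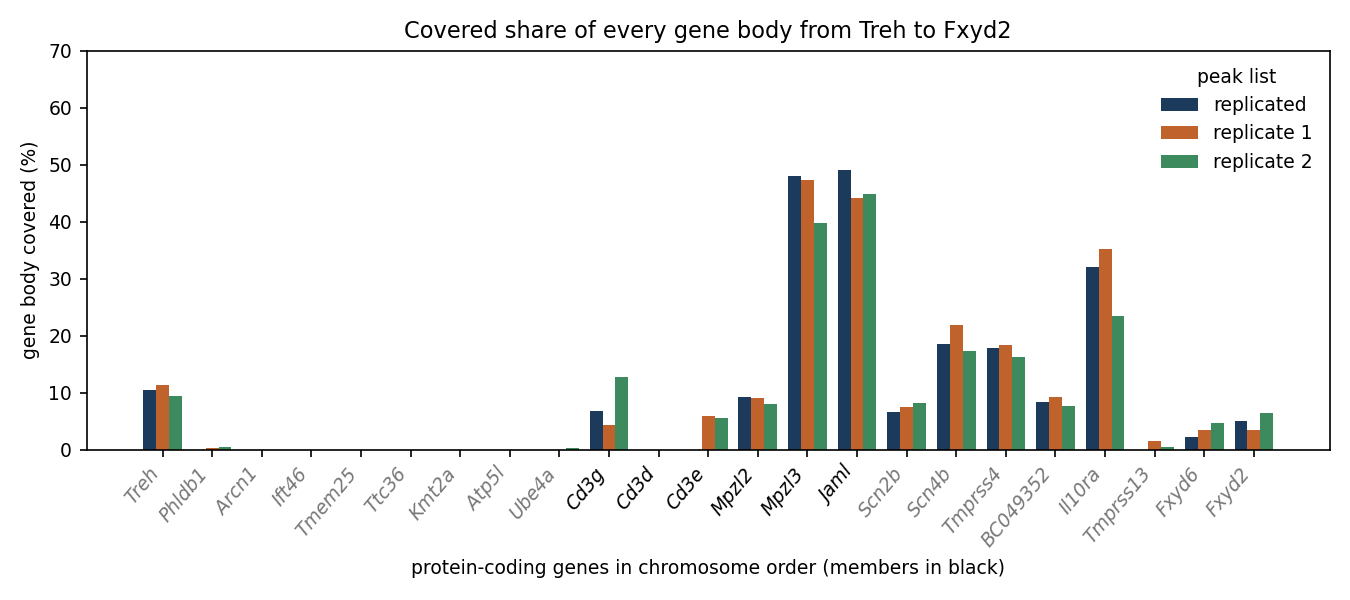
Share of the gene body covered by peaks, in percent, for all 23 protein-coding genes of the stretch in chromosome order, with the 6 genes described here in black; bars are the replicated list and the own list of each replicate. From Phldb1 to Ube4a the bars are at or near 0, and after Jaml the highest is Il10ra at 32.0% in the replicated list.

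Most other genes of the pathways had no covered base. Of 30 genes of the T-cell receptor complex and its signalling, 2 were marked in the replicated list (3.0% over all genes), 2 had at least 10% of the body covered (2.03% over all genes) and 7 had any covered base (11.5% over all genes). The median was 0% covered, as over all genes, and 2 were marked in the pooled list, 1 in replicate 1 and 2 in replicate 2. The 2 were Cd4, the coreceptor of helper T cells, with 31.8% of its body and 666 bp around its start, and Ptcra, the pre-T-cell receptor alpha chain, with 14.6% and 22 bp. Cd4 was marked in each replicate, with 600 bp and 741 bp around its start, and Ptcra in neither. Of 20 genes of small immunoglobulin-domain adhesion proteins, 1 was marked in the replicated list (3.0% over all genes), Vsig1 on chromosome X, with 1356 bp around its start and 9.09% of its body covered. In the pooled list 3 were marked, and 2 in each replicate. Scn4b, the neighbour given above, was the only one of them with at least 10% covered in the replicated list (2.03% over all genes), 5 had any covered base (11.5% over all genes), and the median was 0%.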

How the data were processed

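H3K27me3 ChIP-seq of 2 MEL replicates was used as deposited by the authors, as narrowPeak lists on mm10. Per the deposited text descriptions, each replicate's peaks were called on its own alignments against 1 control alignment that both share, the pooled list on both alignments, and the replicated list from those 3. For the aligner, the caller and the rule for keeping peaks: not given in the sources used here. The authors deposited for each peak its signal score and its −log10 p-value and −log10 q-value, which were used only to describe, rank or filter peaks within a list. An mm9 list was not used here.

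The reference was GRCm38 with GENCODE mouse release 21; 0 peaks reached beyond a chromosome's end. Covered bases are the union of peaks on chromosomes 1 to 19, X and Y, counted with Python 3.11.15 and numpy 2.4.6 and checked on simulated data. A gene's start was its outermost annotated 5′ end, and marked means at least 1 bp of peak within 1 kb of it. Peaks under 3 kb apart were joined. The replicated list gave the main values and each replicate's list the spread. Genes named are the 6 members, the protein-coding genes within 300 kb of them, and, of 2 gene lists (T-cell receptor, 30 genes; adhesion, 20 genes), those marked or with at least 10% of the body covered. Members and lists were chosen with earlier results of these data known. No test was made, since the series holds 1 group and the genes were chosen on their peaks. The alternatives were the pooled list, each replicate alone, replicated peaks with −log10 q from 2 upwards, those in the upper 50% by signal value, joining within 1 or 10 kb, 2.5 kb windows, and 500 bp of the window covered.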

Additional observations from a re-analysis of the deposited data

How the results depend on the processing

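The bases covered from the start of Mpzl2 to the end of Jaml were 28745 bp in the replicated list. They were 31442 bp in the pooled list, 14811 bp with peaks of a −log10 q of at least 2, 24991 bp with only the stronger 50% of peaks by signal value, and 25176 to 26282 bp with either replicate left out. Over the Cd3 genes the 736 bp became 0 bp at a −log10 q of at least 2 and 1123 to 1998 bp with either replicate left out. The domain over Mpzl3, 44706 bp, was 50172 bp long in the pooled list, 24359 bp at a −log10 q of at least 2, 26595 bp when joined within 1 kb, 64181 bp when joined within 10 kb, and 43732 to 50955 bp with either replicate left out. The number of marked starts, 3 of 6, was 2 at a −log10 q of at least 2 and 2 with the stronger 50%, Mpzl2 being lost, and 3 under the other alternatives run. A filter on −log10 q leaves fewer peaks by construction; the cause of the other shifts was not tested. Of the 6 gene bodies, 4 moved by more than the spread between replicates at a −log10 q of at least 2, 3 with the stronger 50%, 1 in the pooled list, 5 without replicate 1 and 2 without replicate 2. No paired analysis was possible because the series holds 1 group. The lists hold no reads, so depth is unknown. Of the bases that either replicate covered, both covered 12.8% in Cd3g and 2.47% in Cd3e. Both replicated peaks of Cd3g nevertheless overlapped a peak of each replicate, and Cd3e had no replicated peak.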
